A study of Mus musculus with 6 samples.

Results

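The interferon response genes are 32 genes whose transcription rises when a cell senses interferon, and they were described here across the cell classes and groups of a single-cell RNA study of mouse brain. They were chosen by name: a gene was a member when its symbol equalled 1 of the 32 listed symbols, and each symbol was found once among the 33696 genes of the tables. The study made 6 droplet libraries with 3' chemistry, 2 each of wild type given vehicle (WT vehicle), wild type given bilirubin (WT bilirubin) and TRPM2 Mg KO given bilirubin, called the knockout. TRPM2 is a cation channel, bilirubin is the yellow product of haem breakdown, and the labels do not expand the letters Mg. The series' title links the liver under stress with negative emotions. The labels gave no dose, brain region, age or sex, and nothing said that replicates were separate animals, so a p-value here reflects spread from library to library, part of which may be technical.

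Levels are UMIs, the unique molecular tags that each stand for 1 captured RNA molecule, scaled to the total of the library or class (CPM). Cells were placed in a class, written as "-like", when at least 3 of that class's marker genes exceeded an expected count. That count came from the gene's share of UMIs over all kept cells of the library. Free RNA, outside cells, was not estimated. Of 78994 cells kept, 23042 were placed and 55952 stayed without a class. Tests were run in the 9 classes that reached 20 cells or more in every library, and levels are also given for neutrophil-like and fibroblast-like cells. In all of these classes the level is scaled by edgeR's TMM factors, which correct for differences in composition between libraries. Levels of whole libraries are CPM without these factors.

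The libraries held 24165563 to 63402551 UMIs in 4137 to 24309 barcodes. WT bilirubin replicate 1 and both knockout libraries stood apart by their mitochondrial RNA, with a median of 3.79% to 7.25% of a kept cell's UMIs, against 0.657% to 1.03% in the other 3 libraries. Pairs of libraries shared 12 to 144 barcodes. In whole libraries Trpm2 stood at 11.5 and 6.29 CPM in WT vehicle, 5.17 and 7.90 in WT bilirubin and 6.48 and 4.48 in the knockout. In microglia-like cells it stood at 23.3 and 16.4, 17.6 and 34.0, and 15.2 and 18.0 CPM. The knockout libraries thus still held Trpm2 RNA, and a 3' tag outside a deleted stretch would not check the labels.

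Interferons are secreted proteins that signal through paired receptors to the kinases Jak1, Jak2 and Tyk2. Type I interferons lead to a complex that holds Stat2 and Irf9 and binds a DNA element, the interferon-stimulated response element. In brain, microglia and vascular endothelium are known to carry both receptor types and to switch on these genes during viral infection, injury and ageing.

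The letters of that element were looked for near the start sites, because they are a feature the choice of genes did not use. RefSeq promoters of build GRCm38.p6, from 250 bases before to 50 bases after a start, were found for 24 of the 32 genes. The letters GAAA, any 2 bases and GAAA, which read TTTC, any 2 bases and TTTC on the other strand, with overlapping matches allowed, occurred in 16 of these 24 genes (66.7%) and in 3.99% of all 27025 genes of the table. Stretches upstream of the start follow for genes whose values are described, 5′ to 3′ on the gene's strand, with each match in capitals.
Isg15 (chr4:156200850-156200921, minus strand): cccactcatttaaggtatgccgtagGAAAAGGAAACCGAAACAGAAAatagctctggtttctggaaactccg
Trim30a (chr7:104465195-104465254, minus strand): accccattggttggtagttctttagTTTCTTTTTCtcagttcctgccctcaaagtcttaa
Bst2 (chr8:71537562-71537627, minus strand): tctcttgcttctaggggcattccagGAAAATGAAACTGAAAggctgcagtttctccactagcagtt
Ddx60 (chr8:61928009-61928086, plus strand): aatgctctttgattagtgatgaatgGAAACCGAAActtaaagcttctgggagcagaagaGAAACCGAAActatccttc
Ifit1 (chr19:34640760-34640838, plus strand): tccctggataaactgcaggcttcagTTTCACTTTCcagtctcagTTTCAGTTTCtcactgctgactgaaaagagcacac
Ifit3 (chr19:34583348-34583441, plus strand): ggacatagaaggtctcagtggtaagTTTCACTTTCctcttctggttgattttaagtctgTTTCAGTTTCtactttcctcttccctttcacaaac
Cxcl10 (chr5:92349068-92349127, minus strand): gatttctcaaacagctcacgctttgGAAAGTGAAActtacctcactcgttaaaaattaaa
Isg15 held 3 overlapping matches, the first beginning 78 bases before the start. Irf7, Irf1, Irf9, Oasl2, Ifit2, Ifi44, Xaf1 and Ifi35 had no match in this window, which says only that these letters are not there. A match is a description of the sequence, not a binding site.

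Interferon response genes were highest in neutrophil-like and endothelial-like cells among the 11 classes described, each of 10 cells or more in every library, and lowest in astrocyte-like, oligodendrocyte-like and choroid plexus-like cells. The summed level of the 32 genes averaged 2573 ± 971 CPM (SD over the 6 libraries) in neutrophil-like and 2457 ± 451 in endothelial-like cells. It was 1903 ± 348 in fibroblast-like, 1421 ± 134 in T or NK-like and 1095 ± 481 in mural-like cells. Ependymal-like cells stood at 998 ± 289 and microglia-like cells at 924 ± 150 CPM. Whole libraries stood at 937 ± 287 CPM, without TMM factors. Erythroid-like cells had 674 ± 267, choroid plexus-like 623 ± 164, oligodendrocyte-like 607 ± 313 and astrocyte-like 599 ± 282 CPM. Every endothelial-like library, from 1803 to 2999 CPM, lay above every T or NK-like, ependymal-like, microglia-like, erythroid-like, oligodendrocyte-like, astrocyte-like and choroid plexus-like library. The endothelial-like range overlapped those of neutrophil-like, fibroblast-like and mural-like cells. These are levels within a class and were not tested between classes. Ifitm3 and Bst2 alone made up 56.1% of the members' UMIs in whole libraries, 55.7% in endothelial-like and 45.9% in microglia-like cells, so the sum follows these 2 genes most closely.

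**Figure D1:**
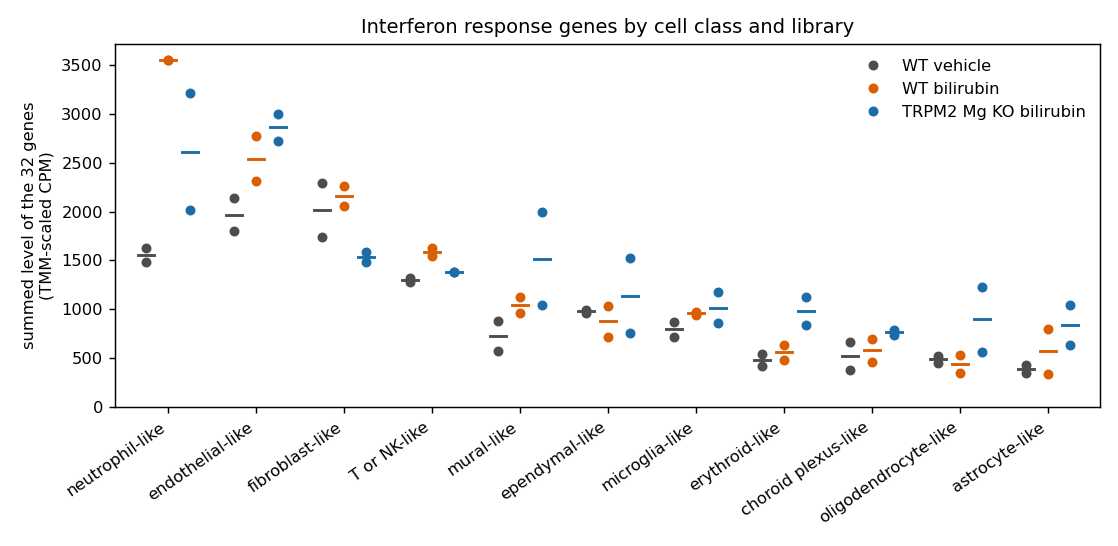
Summed level of the 32 interferon response genes (TMM-scaled CPM, y axis) in 11 cell classes (x axis), with a point for each library and a bar at the mean of the 2 libraries of a group. Endothelial-like libraries lie between 1803 and 2999 CPM and microglia-like libraries between 721 and 1174 CPM.

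Endothelial-like cells had the highest mean of the 11 classes for 13 of the 32 genes. They included Isg15, which encodes a ubiquitin-like protein, with 325 CPM there and 18.0 CPM in choroid plexus-like cells. They also included Bst2, which tethers budding virus at the cell surface, with 319 CPM there and 292 in choroid plexus-like cells. For Xaf1, a gene linked to cell death, the endothelial-like mean of 97.2 CPM was followed by 96.4 CPM in oligodendrocyte-like cells. Neutrophil-like cells led for 10 genes, T or NK-like cells for 4, fibroblast-like cells for 3, and microglia-like and erythroid-like cells for 1 each. The neutrophil-like libraries held only 13 to 157 cells. Among the genes they led, Ddx60, Oas1a, Oas2, Oas3, Oasl2 and Ifi204 had a library at 0 CPM there, and Irf9 ran from 5.94 to 193 CPM. Ifitm3, Trim30a and Rtp4 had none at 0. Mx1 in T or NK-like and Eif2ak2 in fibroblast-like cells, which led for them, also had a library at 0. The microglia-led gene was Cxcl10, a chemokine that attracts T cells, with 17.9 CPM against 11.2 in T or NK-like cells. Rsad2, which encodes the antiviral protein viperin, was led by erythroid-like cells at 44.8 CPM, but there its libraries ran from 1.67 to 131 CPM. In none of the 32 genes did the libraries of the first and second class fail to overlap. Oas3 had no UMI in endothelial-like cells and was led by neutrophil-like cells at 16.6 CPM, with libraries from 0 to 31.2 CPM.

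**Figure D2:**
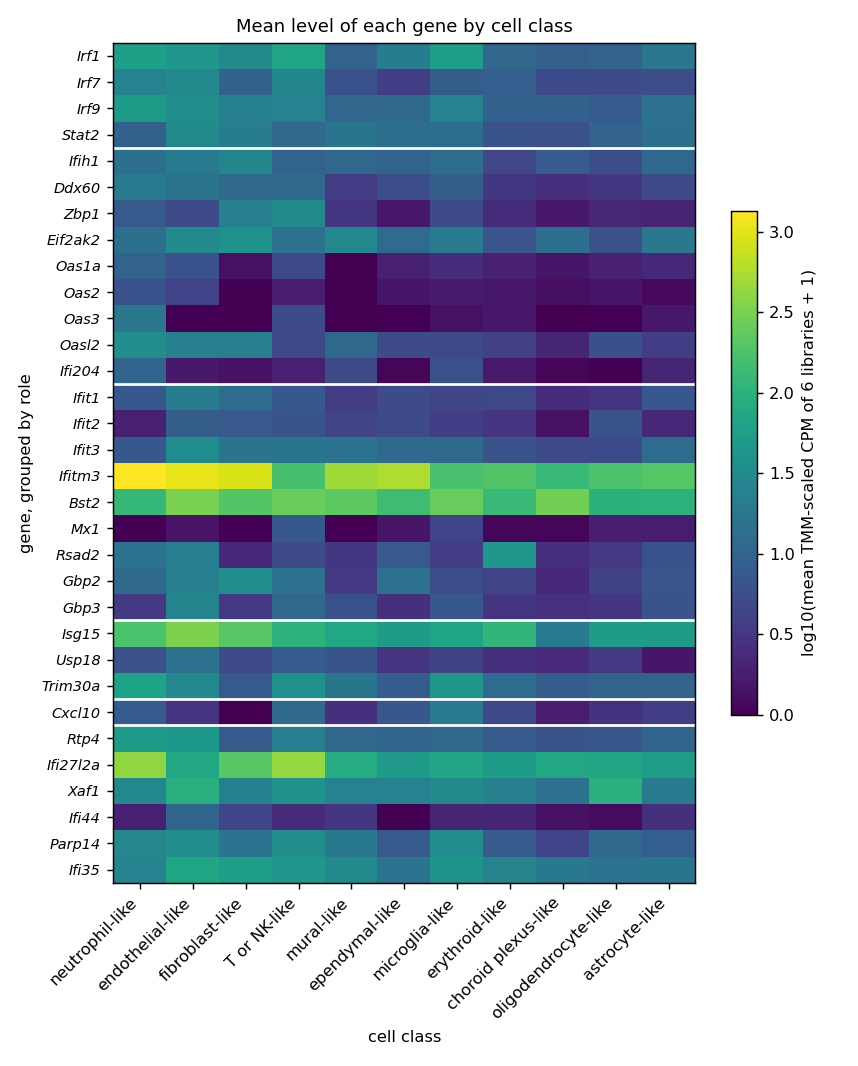
Mean level of each interferon response gene over the 6 libraries (colour, log10 of TMM-scaled CPM + 1) in 11 cell classes (columns); rows are grouped by role and separated by white lines. Ifitm3, Bst2, Isg15 and Ifi27l2a are bright in most columns, and the Oas genes and Mx1 are dark in most.

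No member passed the test in either comparison in any of the 9 classes. With edgeR's quasi-likelihood test and an adjusted p threshold of 0.05, 0 of the 28 members tested in microglia-like cells were called with bilirubin, where 0.029% of all 13812 genes were called. For the knockout comparison in these cells, 0 of 28 members were called, against 0.00724% of all genes. Endothelial-like cells gave 0 of 25 members with bilirubin, against 2.47% of 11843 genes, and 0 of 25 for the knockout, against 0.00844%. Over the other 7 tested classes, 0 of 70 pairs of a member and a class were called with bilirubin, against 0.445% of pairs of a gene and a class, and 0 for the knockout, against 0.0106%. Unadjusted p-values under 0.05 were found for 9 pairs with bilirubin and 11 for the knockout over all 123 pairs tested. That was 7.32% and 8.94% of these pairs, beside 9.87% and 3.86% of all 82502 pairs of a gene and a class. DESeq2 called 0 members too, and had 7 and 5 pairs with an unadjusted p under 0.05. The share of all pairs under DESeq2 is not set beside these counts, so they show nothing particular to the members. Misses of the threshold with 2 libraries a group do not show that levels were alike. Oas1a, Oas2 and Oas3, which make the signal that activates RNA decay, were too low to be tested in any class.

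In microglia-like cells most members had a positive log2 fold change with bilirubin. The change was above 0 for 25 of the 28 tested, with a median of 0.34, beside a median of 0.06 and 55.2% above 0 over all genes tested. Both WT bilirubin libraries lay above both WT vehicle libraries for 11 of the 28 members, where 22.7% of all genes did so. They were Irf7, Irf9, Ifih1, Zbp1, Eif2ak2, Oasl2, Ifit2, Ifit3, Ifitm3, Usp18 and Trim30a. Both lay below for 1 member, Isg15, where 22.3% of all genes did so. The summed microglial marker genes moved the same way, from 15047 and 16923 CPM in WT vehicle to 21399 and 21884 in WT bilirubin, and stood at 20196 and 15271 in the knockout. Erythroid markers in the same cells went from 4873 and 9962 to 2100 and 996 CPM, and stood at 6983 and 333 in the knockout. Dissociation and immediate-early genes stood at 7571 and 6800, 9450 and 10011, and 7777 and 6937 CPM. The median mitochondrial share of these cells was 0.589% and 0.43%, 4.31% and 0.446%, and 3.84% and 2.59%. The part of these measures in the members' values was not tested.

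Among the transcription factors, Irf1, a factor induced by interferon gamma, stood at 51.9 and 61.9 CPM in WT vehicle, 58.2 and 63.0 in WT bilirubin and 54.2 and 43.0 in the knockout. The groups given vehicle and bilirubin overlapped, and both knockout libraries lay below both WT bilirubin libraries. The fitted change was 0.08 ± 0.29 (SE) on the log2 scale with bilirubin and -0.30 ± 0.29 for the knockout. Among the sensors, Eif2ak2, which encodes the kinase PKR that halts translation on double-stranded RNA, stood at 9.34 and 12.4 CPM in WT vehicle, 20.6 and 28.0 in WT bilirubin and 22.9 and 13.9 in the knockout. WT bilirubin lay above vehicle in both libraries, and the knockout lay on both sides of the lower WT bilirubin library. Its log2 fold change with bilirubin was 1.10 ± 0.36, with an adjusted p of 0.208 from edgeR. Oasl2, an OAS-like protein that acts in RNA sensing, stood at 0.584 and 2.17 CPM in WT vehicle, 6.17 and 6.43 in WT bilirubin and 2.93 and 4.86 in the knockout. Here the 3 groups did not overlap: vehicle was lowest, the knockout between and WT bilirubin highest, on 81 UMIs in all. The log2 fold changes were 1.9 ± 0.63 with bilirubin, with an adjusted p of 0.21 from edgeR, and -0.80 ± 0.59 for the knockout. Over the alternatives the change with bilirubin ran from 1.07 with classes from clusters to 3.34 without WT vehicle replicate 2.

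The most abundant antiviral effectors in microglia-like cells were Bst2 and Ifitm3, which blocks virus entry at endosomes. Ifitm3 stood at 94.6 and 93.6 CPM in WT vehicle, 222 and 119 in WT bilirubin and 141 and 338 in the knockout. Every library given bilirubin was above both vehicle libraries, and the knockout libraries overlapped those of WT bilirubin. edgeR gave 0.86 ± 0.41 with bilirubin, with an adjusted p of 0.404. Bst2 stood at 201 and 300.3, 276 and 254, and 226 and 258 CPM, with all groups overlapping. Isg15 went the other way from the 11 genes above: 75.9 and 67.2 CPM in WT vehicle, 58.2 and 45.9 in WT bilirubin and 55.7 and 105 in the knockout. The lower values were those of WT bilirubin against vehicle, and the fitted change was -0.45 ± 0.34. Trim30a, which restrains inflammatory signalling, stood at 28.0 and 42.2 CPM in WT vehicle, 43.4 and 68.5 in WT bilirubin and 44.2 and 38.8 in the knockout. WT bilirubin lay above vehicle and overlapped the knockout, with a log2 fold change of 0.63 ± 0.33 and an adjusted p of 0.451 from edgeR. Ifi27l2a, a small mitochondrial protein gene, stood at 56.6 and 72.1, 48.3 and 82.7, and 46.7 and 116 CPM, with all groups overlapping. The other tested members had log2 fold changes of -0.32 (Xaf1) to 0.97 (Zbp1) with bilirubin. Zbp1 encodes a sensor of left-handed nucleic acid.

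For the knockout against WT bilirubin in microglia-like cells, 16 of 28 members had a positive change, with a median of 0.02 beside -0.00 over all genes. Both knockout libraries lay above both WT bilirubin libraries for 3 members (Gbp3, Xaf1 and Ifit1), where 13.4% of all genes did so. Both lay below for 2 (Oasl2 and Irf1), where 14% of all genes did so. Gbp2 and Gbp3 encode guanylate-binding GTPases that attack vacuoles of microbes. The members' changes ran from -0.99 (Ifi204) to 0.84 (Gbp3). The 2 comparisons share the WT bilirubin libraries, so a gene high there is pulled up in the first and down in the second.

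**Figure D3:**
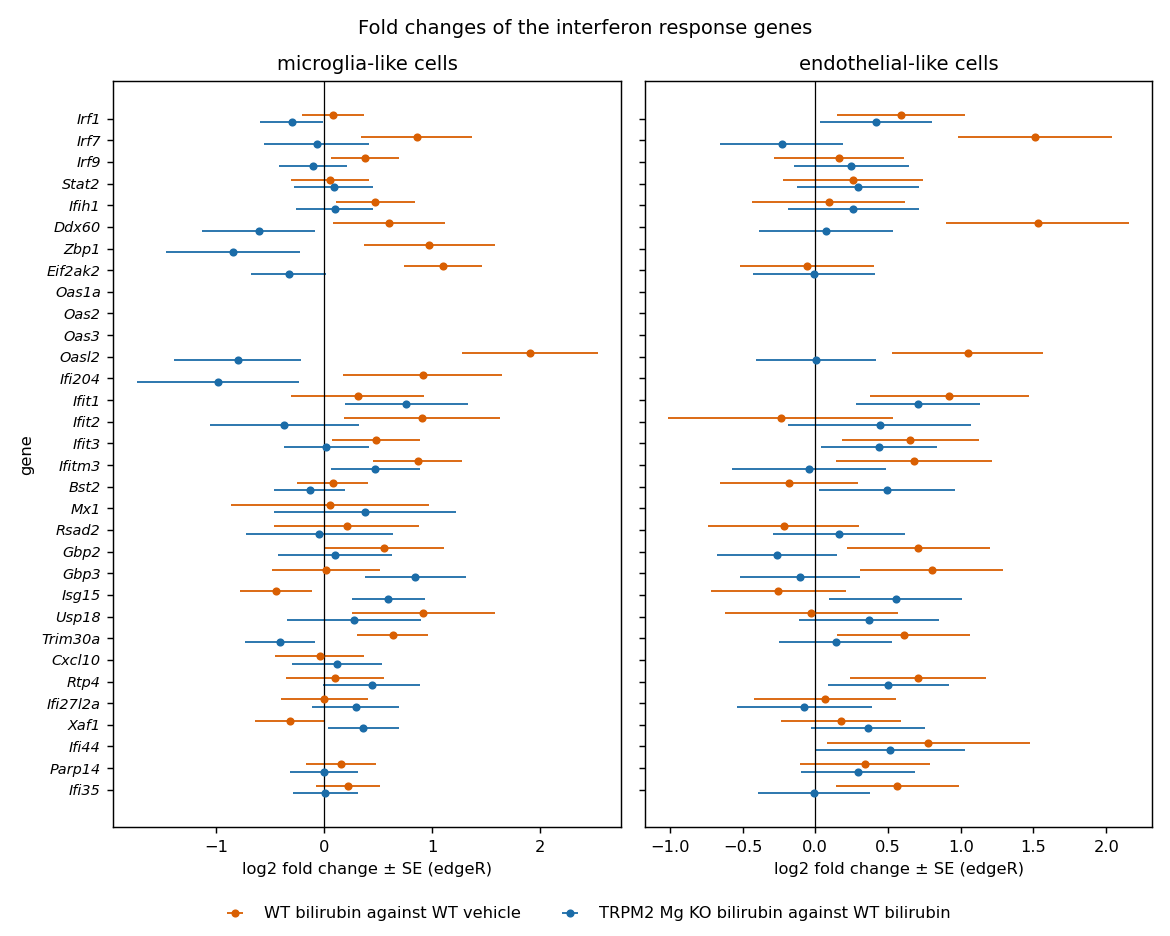
Log2 fold change with its standard error (x axis, edgeR) of each interferon response gene (y axis) in microglia-like cells (left) and endothelial-like cells (right). Orange points compare WT bilirubin with WT vehicle and blue points the knockout with WT bilirubin; genes without a point were too low to be tested. Oasl2 stands at 1.9 with bilirubin in microglia-like cells, and Ddx60 and Irf7 at 1.53 and 1.51 in endothelial-like cells.

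Endothelial-like cells also had more positive than negative changes with bilirubin. The change was above 0 for 19 of 25 members, with a median of 0.56 beside 0.02 over all genes. Both WT bilirubin libraries lay above both vehicle libraries for 12 members, where 22.5% of all genes did so, and both lay below for 0, where 23.3% of all genes did so. These were Irf1, Irf7, Stat2, Ddx60, Oasl2, Ifit3, Ifitm3, Gbp2, Gbp3, Trim30a, Ifi44 and Ifi35. Endothelial markers in these cells were higher in the same libraries, from 8200 and 6828 CPM in WT vehicle to 14775 and 13038 in WT bilirubin, with 15504 and 9158 in the knockout. Dissociation and immediate-early genes stood at 3535 and 3035, 8045 and 4512, and 5850 and 5268 CPM. The part of either list in the members' values was not tested.

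Irf7, the factor that amplifies type I interferon production, had the smallest p in endothelial-like cells. It stood at 15.9 and 13.3 CPM in WT vehicle, 44.5 and 33.8 in WT bilirubin and 50.7 and 17 in the knockout. WT bilirubin lay above vehicle in both libraries, while 1 knockout library was the highest of all and the other lay near vehicle. The log2 fold change with bilirubin was 1.51 ± 0.53, with an adjusted p of 0.136 from edgeR. Without knockout replicate 1 the change was 1.53, within a range of 1.16 to 1.70 over the alternatives. That library enters this comparison through the shared spread, the filter on low counts and the scaling. Ddx60, a helicase that aids RNA sensing, stood at 5.30 and 6.65 CPM in WT vehicle, 15.1 and 25.3 in WT bilirubin and 23.4 and 13.8 in the knockout. All 4 libraries given bilirubin were above both vehicle libraries, on 178 UMIs in all. Its change with bilirubin was 1.53 ± 0.63, with an adjusted p of 0.235 from edgeR. Oasl2 stood at 10.6 and 14.4, 27.8 and 25.3, and 35.6 and 17.5 CPM. All libraries given bilirubin were again above vehicle, with a change of 1.05 ± 0.52 and an adjusted p of 0.379 from edgeR.

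Ifit1, which binds viral RNA caps, stood at 5.30 and 13.3 CPM in WT vehicle, 23.4 and 11.3 in WT bilirubin and 39.0 and 25.4 in the knockout. Vehicle and WT bilirubin overlapped, and both knockout libraries were above both WT bilirubin libraries. The changes were 0.92 ± 0.55 with bilirubin and 0.71 ± 0.43 for the knockout. Ifitm3 was at 732 and 819.8 CPM in WT vehicle, 1373 and 1112 in WT bilirubin and 981 and 1434 in the knockout, so vehicle was lowest and the other groups overlapped. Bst2 was at 204 and 405, 285 and 256, and 358 and 404 CPM, with the vehicle libraries on both sides of all others. Isg15 was at 318 and 319 CPM in WT vehicle, 323 and 205 in WT bilirubin and 365 and 418 in the knockout. Both knockout libraries were above all 4 wild-type libraries, and edgeR's change against WT bilirubin was 0.55 ± 0.46. Xaf1 was at 69.0 and 93.1, 101 and 81.6, and 125 and 113 CPM, with the knockout above the rest. Ifi27l2a was at 71.6 and 70.9, 38.5 and 127, and 45.5 and 97.5 CPM, with all groups overlapping. Ifi35, a partner of the interferon-induced protein Nmi, was at 69.0 and 42.1, 85.7 and 70.4, and 86.3 and 71.0 CPM, with vehicle lowest.

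For the knockout against WT bilirubin in endothelial-like cells, 18 of 25 members had a positive change, with a median of 0.26 beside 0.05 over all genes. Both knockout libraries lay above for 6 members (Irf1, Ifit1, Bst2, Isg15, Xaf1 and Ifi44), where 12.8% of all genes did so, and below for 0, where 11.8% did so. The changes ran from -0.26 (Gbp2) to 0.71 (Ifit1).

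In T or NK-like cells, lymphocytes that are a main source of interferon gamma, 12 of 15 tested members had a positive change with bilirubin, with a median of 0.25 beside 0.04 over all genes. Both WT bilirubin libraries lay above vehicle for 5 members, where 17% of all genes did so, and below for 2, where 21.2% did so. Irf9, a DNA-binding factor that works with Stat2, stood at 8.74 and 6.64 CPM in WT vehicle, 33.1 and 42.0 in WT bilirubin and 15.6 and 33.4 in the knockout. The knockout overlapped WT bilirubin and both groups were above vehicle. Its change with bilirubin was 2.33 ± 0.66, with an adjusted p of 0.309 from edgeR. Ifit3, which works with Ifit1, stood at 0 and 4.98 CPM in WT vehicle, 27.6 and 15.6 in WT bilirubin and 34.4 and 9.53 in the knockout. Every library given bilirubin was above vehicle, with a change of 2.55 ± 1.01 and an adjusted p of 0.527 from edgeR. With 1 vehicle library at 0, the change ran from 1.77 with classes from clusters to 6.33 without WT vehicle replicate 2, a fitted value against a group at 0 that is no bound. Reads of Ifit3 and its near-identical copy Ifit3b may be split between them, and the same holds for Oas1a, Ifi204, Trim30a and the Gbp genes and their relatives.

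The other members named by the rule differed in direction. Irf1 stood at 78.7 and 76.3 CPM in WT vehicle, 75.8 and 51.6 in WT bilirubin and 78.1 and 47.6 in the knockout. Ifi35 stood at 52.5 and 54.8, 41.4 and 46.8, and 43.8 and 23.8 CPM. WT bilirubin lay below vehicle for both of these genes. Trim30a stood at 30.6 and 31.5, 37.2 and 57.7, and 40.6 and 19.1 CPM, with WT bilirubin above vehicle. Ifi27l2a stood at 516 and 446 CPM in WT vehicle, 396 and 746 in WT bilirubin and 303 and 186 in the knockout. Both knockout libraries were below all others, with a change of -1.21 ± 0.52 against WT bilirubin and an adjusted p of 0.999 from edgeR. The T or NK markers of knockout replicate 2 were low as well, at 2325 CPM against 4468 to 6515 in the other libraries, and their part in this was not tested. Bst2 stood at 179 and 287, 269 and 217, and 306 and 291 CPM, and Isg15 at 91.8 and 88.0, 112 and 84.1, and 122 and 124 CPM. For both genes the knockout was above WT bilirubin. Ifitm3 stood at 105 and 91.3, 227 and 70.9, and 103 and 395 CPM, with all groups overlapping. For the knockout, both libraries lay above WT bilirubin for 2 of 15 members, where 14.2% of all genes did so, and below for 2, where 13.1% did so.

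Isg15 followed a common pattern over libraries in the classes above and in the others. It was lowest in WT bilirubin replicate 2 and highest in knockout replicate 2 in microglia-like, endothelial-like and T or NK-like cells. In whole libraries it stood at 73.2 and 56.4 CPM in WT vehicle, 80.7 and 28.3 in WT bilirubin and 95.3 and 160 in the knockout. WT bilirubin replicate 2 was the lowest library and knockout replicate 2 the highest. Choroid plexus-like cells held 17.6 and 24.3, 14.2 and 2.76, and 10.5 and 38.6 CPM. In ependymal-like cells it stood at 44.7 and 32.1, 33.3 and 6.35, and 40.9 and 152 CPM. In oligodendrocyte-like cells it stood at 41.8 and 13.2, 25.4 and 10.2, and 45.2 and 169 CPM. These 3 classes had the same lowest and the same highest library as the whole libraries. In astrocyte-like cells it stood at 34.9 and 40.2, 86.3 and 6.54, and 50.2 and 87.3 CPM. In mural-like cells it stood at 39.8 and 16.4, 92.4 and 0, and 86.6 and 216 CPM. In erythroid-like cells it stood at 84.3 and 91.6, 98.6 and 49.6, and 194 and 158 CPM. WT bilirubin replicate 2 was again the lowest library in these classes, and knockout replicate 2 was the highest except in erythroid-like cells. There the knockout libraries held 857 and 677 member UMIs among 1493537 and 471971 UMIs of the class. The summed levels on the TMM scale were 839 and 1129 CPM, so the factors raised replicate 1 and lowered replicate 2. The order of these 2 libraries for Isg15 in erythroid-like cells depends on that scaling.

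**Figure D4:**
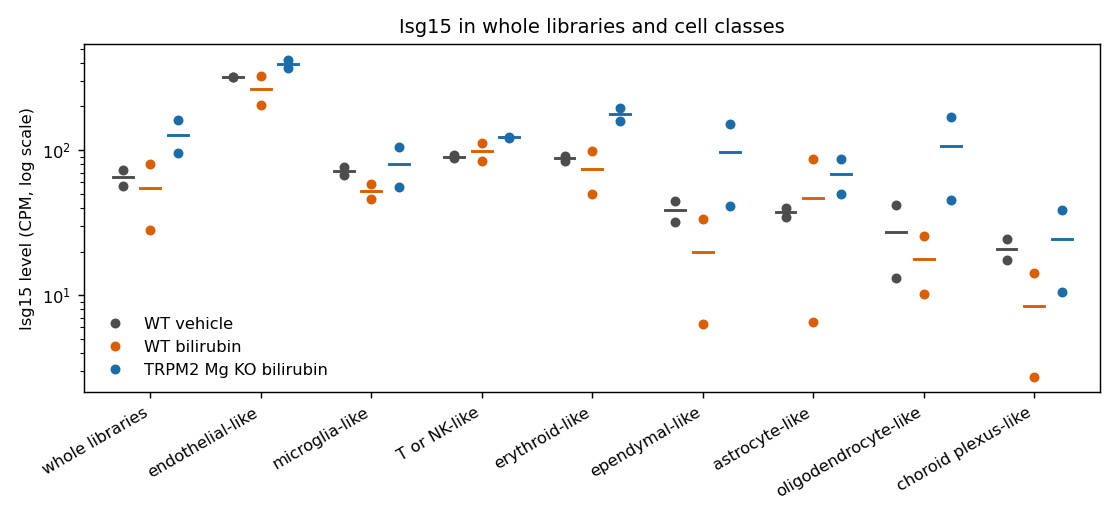
Isg15 level (y axis, log scale; CPM in whole libraries and TMM-scaled CPM in classes) in whole libraries and 8 cell classes (x axis), with a point for each library and a bar at the mean of a group. In oligodendrocyte-like cells the libraries run from 10.2 to 169 CPM, and endothelial-like libraries lie between 205 and 418 CPM.

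The knockout changes of Isg15 were 2.45 ± 0.59 in oligodendrocyte-like cells, with an adjusted p of 0.118 from edgeR, and 2.17 ± 0.61 in ependymal-like cells, with an adjusted p of 0.999. They were 1.29 ± 0.52 in choroid plexus-like and 1.19 ± 0.54 in erythroid-like cells. Over the alternatives the change in ependymal-like cells ran from 0.90 without knockout replicate 2 to 3.89 without WT bilirubin replicate 1, and edgeR's adjusted p from 0.000969 with no filter on low counts to 1.00. Without knockout replicate 1 it was 2.79, with an adjusted p of 0.0258 from edgeR. In choroid plexus-like cells the change ran from 0.24 without knockout replicate 2 to 2.98 without WT bilirubin replicate 1, where edgeR's adjusted p was 0.00238. Without knockout replicate 1 it was 2.09 there, with an adjusted p of 0.0237 from edgeR. In oligodendrocyte-like cells the call depended on the fit: edgeR's adjusted p was 0.00124 with only the 4 libraries compared, and ran from 8.05e-05 to 1.00 over the alternatives. Without WT bilirubin replicate 1 the change was 3.27, and without knockout replicate 1 it was 3.17, with edgeR's adjusted p of 0.00717 and 0.00856. With bilirubin the change in choroid plexus-like cells was -1.26 ± 0.52, with an adjusted p of 0.275 from edgeR. Endothelial markers found within oligodendrocyte-like cells stood at 425 and 313 CPM in WT vehicle, 512 and 231 in WT bilirubin and 924 and 2124 in the knockout. Within ependymal-like cells they stood at 1168 and 788, 1459 and 1094, and 1409 and 3128 CPM. Oligodendrocyte markers in their own class stood at 23463 and 19626, 23913 and 34412, and 19989 and 12654 CPM. Endothelial markers were thus highest where Isg15 was highest, and their part in the Isg15 values was not tested.

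Ifitm3 was also highest in knockout replicate 2 in each of these classes. In oligodendrocyte-like cells it stood at 77.8 and 124 CPM in WT vehicle, 164 and 42.5 in WT bilirubin and 153 and 496 in the knockout. Its change for the knockout was 1.61 ± 0.54, with an adjusted p of 0.314 from edgeR. Without WT bilirubin replicate 1 the change was 2.89 and edgeR's adjusted p was 0.00696, and without knockout replicate 1 these were 2.23 and 0.0498, within a range of 0.00696 to 1.00 over the alternatives. The groups overlapped, since 1 WT bilirubin library lay above 1 knockout library. In astrocyte-like cells Ifitm3 stood at 109.9 and 122, 308 and 78.5, and 203 and 400 CPM. In erythroid-like cells it stood at 86.9 and 108, 238 and 81.1, and 181 and 452 CPM. Choroid plexus-like cells held 94.9 and 86.1, 158 and 82.4, and 155 and 209.9 CPM. In all 3 the WT bilirubin libraries lay on both sides of vehicle. Ependymal-like cells had 626 and 512, 636 and 453, and 357 and 811 CPM, and mural-like cells 279 and 262, 504 and 559, and 402 and 885 CPM. In mural-like cells every library given bilirubin was above vehicle, with a change of 0.96 ± 0.63 and an adjusted p of 0.999 from edgeR.

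Bst2 was lowest in WT vehicle replicate 1 in choroid plexus-like, oligodendrocyte-like, erythroid-like, astrocyte-like and mural-like cells. Choroid plexus-like cells held 81.3 and 344 CPM in WT vehicle, 369 and 244 in WT bilirubin and 418 and 293 in the knockout. In oligodendrocyte-like cells it stood at 43.2 and 134, 117 and 47.6, and 101 and 172 CPM. In erythroid-like cells it stood at 62.6 and 155, 80.7 and 135, and 123 and 208 CPM. In all 3 the other vehicle library lay above at least 1 WT bilirubin library. In ependymal-like cells Bst2 stood at 98.9 and 235, 117 and 76.2, and 118 and 210.3 CPM, and in astrocyte-like cells at 53.6 and 116, 101 and 72.0, and 104 and 175 CPM. Both knockout libraries were above WT bilirubin there, with changes of 0.76 ± 0.46 and 0.63 ± 0.44. In mural-like cells it stood at 66.4 and 344, 208 and 119.7, and 186 and 381 CPM, with all groups overlapping. Choroid plexus markers within microglia-like cells may reflect free RNA, which was not estimated. They were lowest in WT vehicle replicate 1, at 3090 CPM against 17153 to 34575 in the other libraries. Their part in Bst2 was not tested.

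In choroid plexus-like cells, which make cerebrospinal fluid, 8 of 17 members had a positive change with bilirubin, with a median of -0.11 beside 0.00 over all genes. Both WT bilirubin libraries lay above vehicle for 3 members, where 19.4% of all genes did so, and below for 6, where 21.7% did so. Choroid plexus markers in these cells stood at 107461 and 184576 CPM in WT vehicle, 242765 and 293289 in WT bilirubin and 205838 and 178764 in the knockout, and their part in the members' values was not tested. For the knockout both libraries lay above WT bilirubin for 4 members, where 13.8% of all genes did so, and below for 0, where 15.9% did so. Ifi27l2a stood at 79.9 and 101 CPM in WT vehicle, 48.1 and 49.0 in WT bilirubin and 94.9 and 65.6 in the knockout. The lowest libraries were those of WT bilirubin. Its change with bilirubin was -0.91 ± 0.37, with an adjusted p of 0.261 from edgeR, and for the knockout 0.74 ± 0.36. Irf1 stood at 16.3 and 6.67, 6.19 and 4.59, and 5.90 and 7.72 CPM, Xaf1 at 16.3 and 15.5, 14.6 and 5.82, and 10.8 and 20.1 CPM, and Ifi35 at 19.0 and 16.3, 20 and 11.3, and 21.6 and 16.2 CPM. WT bilirubin lay below vehicle for Irf1 and Xaf1 and overlapped it for Ifi35.

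Among the remaining targets in other classes, Ifi27l2a stood in ependymal-like cells at 25.5 and 64.2 CPM in WT vehicle, 30.7 and 31.8 in WT bilirubin and 52.9 and 84.3 in the knockout. In astrocyte-like cells it stood at 37.5 and 44.3, 54.0 and 43.6, and 54.9 and 90.9 CPM. Both knockout libraries were above WT bilirubin in both classes, with changes of 1.15 ± 0.43 and 0.48 ± 0.41. In oligodendrocyte-like cells Ifi27l2a stood at 56.2 and 75.4, 40.7 and 59.5, and 56.8 and 124 CPM, in mural-like cells at 53.1 and 82.0, 41.6 and 119.7, and 92.8 and 134 CPM, and in erythroid-like cells at 35.6 and 64.7, 31.4 and 76.6, and 30.3 and 81.7 CPM. The groups overlapped in these 3 classes. Xaf1 stood in astrocyte-like cells at 10.7 and 11.1 CPM in WT vehicle, 10.8 and 13.1 in WT bilirubin and 27.5 and 40 in the knockout. Both knockout libraries were above all others there, with a change of 1.43 ± 0.55 and an adjusted p of 0.971 from edgeR. Endothelial markers within astrocyte-like cells stood at 619 and 411 CPM in WT vehicle, 991 and 196 in WT bilirubin and 1198 and 1847 in the knockout, and their part in Xaf1 was not tested. In ependymal-like cells Xaf1 stood at 16.0 and 19.3, 23.1 and 7.94, and 25.6 and 47.2 CPM, again with the knockout highest and a change of 1.15 ± 0.51. In oligodendrocyte-like cells, where it was abundant, it stood at 131 and 71.6, 99.1 and 107, and 78.7 and 90.8 CPM. Here both knockout libraries lay below WT bilirubin, with a change of -0.29 ± 0.39.

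Ifi35 stood in astrocyte-like cells at 0 and 6.93 CPM in WT vehicle, 28.1 and 10.9 in WT bilirubin and 20.8 and 25.5 in the knockout. Every library given bilirubin was above vehicle, with a change of 2.20 ± 0.79 and an adjusted p of 0.293 from edgeR. With 1 vehicle library at 0, the change was 1.56 without WT vehicle replicate 1, 0.95 with classes from clusters, and 6.69 without WT vehicle replicate 2, a fitted value against a group at 0 that is no bound. In oligodendrocyte-like cells it stood at 15.8 and 17, 8.89 and 5.10, and 17.5 and 24.2 CPM. There WT bilirubin was lowest and the knockout highest, with changes of -1.16 ± 0.66 and 1.46 ± 0.66. In erythroid-like cells Ifi35 stood at 18.3 and 10.8, 28.0 and 27.0, and 20.6 and 40 CPM, and in mural-like cells, where it was too low to be tested, at 39.8 and 24.6, 37.0 and 0, and 37.1 and 41.2 CPM. WT bilirubin lay above vehicle in erythroid-like cells and overlapped it in mural-like cells. Eif2ak2 stood in mural-like cells at 13.3 and 8.2, 13.9 and 79.8, and 12.4 and 41.2 CPM, and in astrocyte-like cells at 16.1 and 8.31, 12.9 and 28.4, and 18.0 and 18.2 CPM. Irf1 stood in ependymal-like cells at 28.7 and 27.8, 21.3 and 14.3, and 15.4 and 15.7 CPM. Every library given bilirubin was below vehicle for Irf1 there, while for Eif2ak2 WT bilirubin lay above vehicle in mural-like cells, where it was too low to be tested, and overlapped it in astrocyte-like cells.

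Erythroid-like cells differed between libraries in their own markers, the haemoglobin genes among them. These stood at 489195 and 244807 CPM in WT vehicle, 238348 and 576264 in WT bilirubin, and 874569 and 12635 in the knockout on the TMM scale. Knockout replicate 2 therefore held few haemoglobin UMIs in cells of this class. Rsad2 stood there at 28.7 and 18.1, 30.3 and 58.6, and 131 and 1.67 CPM, lowest in that same library. Irf7 stood at 4.35 and 1.29, 6.73 and 0, and 18.6 and 15 CPM, with the knockout highest and a change of 1.71 ± 0.83. Rtp4, a chaperone of receptors that interferon induces, stood at 1.74 and 3.45, 11.2 and 0, and 8.81 and 13.3 CPM, with vehicle and WT bilirubin overlapping. The part of the uneven markers in these values was not tested.

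Single cells with many of these genes at once were few. To set depths equal, each cell was thinned to 1000 UMIs at random, and shallower cells were left out. The loss was uneven: WT bilirubin replicate 2 lost 55 of 159 endothelial-like and 260 of 928 microglia-like cells. Knockout replicate 1 lost 15 of 874 and 34 of 1476, so the shares of some libraries describe their deeper cells only. Cells with at least 3 distinct members then made up 16.8% ± 7.93 (SD, n = 2) of endothelial-like cells in WT vehicle, 27.6% ± 0.967 in WT bilirubin and 32.5% ± 5.28 in the knockout. By library the shares were 11.2% and 22.4%, 28.3% and 26.9%, and 36.2% and 28.7%, so all 4 libraries given bilirubin were above vehicle. Unthinned, they were 27.9% and 49.9%, 67.7% and 39.6%, and 83.0% and 83.1%, and the median depth of the cells thinned ran from 1488 to 4093.5 UMIs. In microglia-like cells the thinned shares were 3.38% ± 0.779 in WT vehicle, 5.79% ± 0.354 in WT bilirubin and 3.72% ± 1.32 in the knockout. Both WT bilirubin libraries, at 6.04% and 5.54%, were above the others, at 2.83%, 3.93%, 4.65% and 2.79%. In choroid plexus-like cells the share was 1.05% ± 0.860 in WT vehicle, 1.00% ± 0.768 in WT bilirubin and 2.22% ± 0.372 in the knockout, with median depths of 2581 to 8275 UMIs before thinning. These shares were not tested, since with 2 libraries a group no exact permutation could pass the threshold of 0.05.

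**Figure D5:**
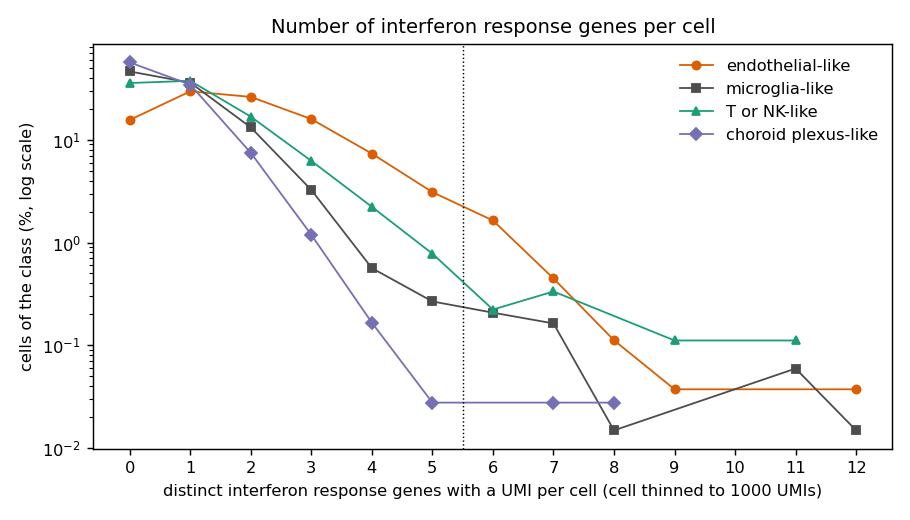
Share of cells (y axis, %, log scale) by the number of distinct interferon response genes with a UMI (x axis) after thinning to 1000 UMIs, for 4 cell classes over all 6 libraries; the dotted line marks 6 genes and more. In all, 2.27% of endothelial-like and 0.46% of microglia-like cells lie beyond it.

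Cells with at least 6 distinct members after thinning were then described, a cut chosen after the values were seen. They numbered 61 of 2685 endothelial-like, 31 of 6745 microglia-like and 7 of 899 T or NK-like cells. In endothelial-like cells 0 and 2 came from WT vehicle, 19 and 2 from WT bilirubin and 33 and 5 from the knockout. In microglia-like cells 3 and 10 came from WT vehicle, 6 and 5 from WT bilirubin and 7 and 0 from the knockout, so they occurred in all groups. The 0 of 323 cells in knockout replicate 2 allows a share of up to 0.929%. Just below the cut, with 5 distinct members, were 18 microglia-like and 83 endothelial-like cells, and 14 and 44 had exactly 6. These 31 microglia-like cells, 0.46% of the class, held 40% of its Ifit3 UMIs, 31.4% of Mx1, which traps viral capsids, 30.2% of Ifit2 and 23.3% of Irf7, as follows from how they were picked.

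Genes outside the members were read next, though this reading is not independent of the cut. Many of them are other interferon targets, and some are close relatives of members. The 87 genes of the surrounding pathway together stood at 8162 CPM (95% Poisson interval 7601 to 8753) in the 31 microglia-like cells and at 3671 CPM in the other microglia-like cells. Their microglial markers stood at 21855 CPM (20931 to 22810) against 19193, with P2ry12 at 749 (586 to 943) against 902. In the 61 endothelial-like cells the pathway genes stood at 6004 CPM (5683 to 6338) against 3953, and their endothelial markers at 18295 CPM (17732 to 18872) against 12749. Median depth was 2876 and 2540.5 UMIs in the chosen and other microglia-like cells, and the median doublet score of Scrublet was 0.102 and 0.130. The intervals cover counting error only, and cells of 1 library are not replicates.

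Of the pathway around these genes, 87 of 88 listed genes were in the tables, and none was called in any class in either comparison. Among ligands, Ifng had 432 UMIs in whole libraries, of which 296 lay in T or NK-like cells. By library these T or NK-like UMIs numbered 12 and 34 in WT vehicle, 91 and 96 in WT bilirubin and 56 and 7 in the knockout. These UMIs depend on the number of cells, and scaled to the class's total they were 52.5 and 56.4 CPM, 125 and 115, and 175 and 33.4. WT bilirubin lay above vehicle, and the knockout libraries lay on both sides of all others, with a change of 1.13 ± 0.58 with bilirubin and an adjusted p of 0.721 from edgeR. Ifnb1 had 25 UMIs in all, 3 and 3, 2 and 1, and 6 and 10 by library, of which 8 lay in microglia-like and 6 in endothelial-like cells. Ifnk had 1 UMI, and Ifna1, Ifna2, Ifna4, Ifna5, Ifne, Ifnl2 and Ifnl3 had 0.

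Receptors were found in both main classes. In microglia-like cells Ifngr1 stood at 307 and 377 CPM in WT vehicle, 422 and 550.0 in WT bilirubin and 497 and 348 in the knockout. Ifngr2 stood at 73.5 and 99.9, 100.5 and 164, and 151 and 82.5 CPM, and Ifnar2 at 205 and 263, 293 and 306, and 278 and 268 CPM. WT bilirubin was above vehicle for these 3 genes. Ifnar1 stood at 44.4 and 47.9, 37.8 and 57.4, and 69.6 and 40.9 CPM, with all groups overlapping. In endothelial-like cells Ifnar1 stood at 101 and 93.1, 145 and 141, and 281 and 99.6 CPM, and Ifnar2 at 154 and 198, 359 and 245, and 385 and 343 CPM. All libraries given bilirubin were above vehicle for Ifnar2 there. Ifngr1 stood at 69.0 and 76.4, 76.3 and 73.2, and 84.5 and 97.5 CPM, and Ifngr2 at 31.8 and 27.7, 20.8 and 11.3, and 26.3 and 22.3 CPM. Ifngr2 lay below vehicle in every library given bilirubin, and Ifngr1 overlapped between vehicle and WT bilirubin.

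By list, the median change with bilirubin in microglia-like cells was 0.50 for 5 receptors, 0.44 for 12 sensors and adaptors, 0.27 for 7 genes that restrain signalling and 0.55 for 30 other interferon targets. For the last list 26 of 30 were above 0, and in endothelial-like cells 30 of 31 were, with a median of 0.65. In T or NK-like cells 22 of 22 were above 0, with a median of 0.63. Over all genes tested 55.2%, 51.5% and 52.8% were above 0 in microglia-like, endothelial-like and T or NK-like cells. Elsewhere this list was less one-sided, with 16 of 23 above 0 in choroid plexus-like, 6 of 8 in ependymal-like and 8 of 13 in erythroid-like cells. Astrocyte-like cells had 6 of 10, mural-like 3 of 4 and oligodendrocyte-like 3 of 6. The sensors and adaptors in endothelial-like cells had a negative median with bilirubin, -0.27, with 3 of 7 above 0, while there the receptors stood at 0.56 and the genes that restrain signalling at 0.33. In T or NK-like cells the medians were 0.53 for 4 receptors, 0.49 for 3 sensors and adaptors and 0.50 for 7 genes that restrain signalling. For the knockout against WT bilirubin, the other interferon targets had medians of -0.14 in microglia-like, 0.13 in endothelial-like and -0.27 in T or NK-like cells. None of these genes was called, against the shares of all genes given above, and the smallest adjusted p from edgeR was 0.0655, for Ifitm1 in endothelial-like cells.

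Across the 11 classes, the genes outside all lists whose mean level followed the summed members most closely were Sik1, with a Spearman rho of 0.90, Rp9 and Hpcal1 with 0.87, and Tpm4 and Cnn2 with 0.86. These were the first 5 of 6915 genes with a mean of at least 20 CPM. The classes come from the same 6 libraries and share their free RNA, so the values are a description.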

How the data were processed

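Single-cell RNA libraries from 6 mouse brain samples were used, 2 in each of 3 groups. The deposited matrices hold raw UMI counts per gene and barcode, made by Cell Ranger 9.0.1 per the file headers; the submitters' processing notes name Cell Ranger 8.0.0 and Scanpy 1.9.6. Those notes name more than one genome build without a role, so which build the counts used is not stated. Deposited gene names and barcodes were used as they stand.

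A barcode passed with 500 UMIs or more, 300 detected genes or more and no more than 15% of UMIs from mitochondrial genes, which left 94144 of 95014. Scrublet's own threshold marked 0% to 48.0% of a library, so in each library the highest scores were removed up to an expected rate of 0.8% per 1000 barcodes, 15150 cells in all. A marker counted as on when its UMIs exceeded the library's share of that gene (Poisson p under 0.05). A cell entered a class with 3 markers on or more, when this was 2 times the number of the next class or higher, thresholds that were chosen once the data had been seen.

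UMIs were summed per library and class and tested with edgeR 4.0.16 (quasi-likelihood, TMM, filter on low counts, group only, all 6 libraries, 3 residual degrees of freedom), with Benjamini-Hochberg adjustment over all genes of a class and comparison and a threshold of 0.05. R 4.3.3, DESeq2 1.42.0, scanpy 1.11.5 and Python 3.11.15 were used, and the fit was tested on simulated data. Intervals and limits cover counting error only. The members, gene lists and tests were chosen with earlier results of these data known. Values in every library are given for the 4 members with the smallest p and the 6 with the highest mean level in a class, and for other members ranges and counts. Alternatives were another scaling, DESeq2, no filter on low counts, only the libraries compared, a replicate block, other cell filters, doublets kept, classes from clusters, a stricter gate and each library left out. The medians of a further list of signalling genes are not reported here.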

Additional observations from a re-analysis of the deposited data

Results flagged for a closer look

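For 8 combinations of a gene and a comparison the classes went in opposite directions, with both libraries of one group above both of the other in some classes and below in others. For each, the classes with the largest difference between them are given first. None of these differences was tested, and the classes come from the same libraries. Such non-overlap was common among all genes. In microglia-like cells 22.7% of all genes were higher with bilirubin in this way and 22.3% were lower. For the knockout these shares were 13.4% and 14%. The share of all genes with opposite directions between classes is not set beside this count. The 8 combinations therefore do not show that such differences were particular to these members. With bilirubin, the log2 fold change of Ifi35 was 2.20 in astrocyte-like and -1.16 in oligodendrocyte-like cells, a difference of 3.36. With 1 vehicle library at 0 in astrocyte-like cells, the change there ran from 0.95 to 6.69 over the alternatives. Ifi35 was also higher in endothelial-like and erythroid-like and lower in T or NK-like cells. Irf1 had 0.59 in endothelial-like and -0.83 in choroid plexus-like cells, a difference of 1.41, and was also lower in T or NK-like and ependymal-like cells. Stat2 had 0.26 in endothelial-like and -0.61 in choroid plexus-like cells, a difference of 0.87. Trim30a had 0.63 in microglia-like and -0.50 in choroid plexus-like cells, a difference of 1.13, and was also higher in T or NK-like and endothelial-like cells. Xaf1 had 0.74 in erythroid-like and -0.57 in choroid plexus-like cells, a difference of 1.31.

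For the knockout against WT bilirubin, Ifi27l2a had 1.15 in ependymal-like and -1.21 in T or NK-like cells, a difference of 2.36, and was also higher in choroid plexus-like and astrocyte-like cells. Irf1 had 0.42 in endothelial-like and -0.30 in microglia-like cells, a difference of 0.72. Xaf1 had 1.43 in astrocyte-like and -0.29 in oligodendrocyte-like cells, a difference of 1.72, and was also higher in microglia-like, endothelial-like and ependymal-like cells.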

How the results depend on the processing

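Under 16 alternative settings, 2 of them added after seeing the data, the number of members called by edgeR or DESeq2 stayed at 0 in microglia-like cells in both comparisons and in endothelial-like cells for the knockout. Of 96 such counts 12 moved. Leaving out 1 library at a time gave 0 to 1 members in endothelial-like cells with bilirubin (Irf7, without knockout replicate 1). In the other classes it gave 0 to 1 pairs of a member and a class with bilirubin and 0 to 4 for the knockout. With bilirubin these were Bst2 in choroid plexus-like cells without WT vehicle replicate 2 (2.06) and Isg15 there without WT bilirubin replicate 1 (-2.89). For the knockout in the other classes the pairs called were of 2 members, Isg15 and Ifitm3. Isg15 made up both of the 2 pairs called with no filter on low counts, in ependymal-like and oligodendrocyte-like cells, and the 1 pair called with only the 4 libraries compared or without either vehicle library, in oligodendrocyte-like cells. Without WT bilirubin replicate 1 the 4 pairs were Isg15 in astrocyte-like, choroid plexus-like and oligodendrocyte-like cells and Ifitm3 in oligodendrocyte-like cells. Without knockout replicate 1 they were the same but for ependymal-like in place of astrocyte-like cells. The cause was not tested. Shares of all genes called under these alternatives, the replicate blocks included, are not set beside these counts. The counts therefore do not show that such calls were particular to these members.

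The labels give no pairing of replicate numbers. For each gene, the deviation of replicate 1 from its group's mean was compared between groups. In microglia-like cells these deviations correlated at -0.109 to -4.98e-05. Over the tested classes the correlations ran from -0.330 in T or NK-like to 0.192 in erythroid-like cells. They were -0.266 to 0.131 in choroid plexus-like, -0.176 to -0.0860 in ependymal-like and -0.167 to -0.0316 in oligodendrocyte-like cells. With the replicate block, 1 pair was called for the knockout in the other classes, Isg15 in oligodendrocyte-like cells (2.47, edgeR adjusted p 0.0166), and 0 elsewhere. With the numbers crossed, a block added after seeing the data, 1 was called with bilirubin (Isg15 in choroid plexus-like cells, -1.83) and 3 pairs for the knockout, Isg15 in ependymal-like and Isg15 and Ifitm3 in oligodendrocyte-like cells.

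For 36 fold changes, 553 values were computed under alternatives, of which 532 kept the direction and side of the threshold, 17 passed it and 4 reversed. Leaving out 1 library at a time, the change with bilirubin ran from -4.39 to 2.03 for Isg15 in mural-like, from -0.62 to 1.4 for Ifitm3 in astrocyte-like and from -5.21 to 2.07 for Rtp4 in erythroid-like cells; each lowest value came without WT bilirubin replicate 1. With classes from clusters, Ifi27l2a in oligodendrocyte-like cells became -0.030 for the knockout. Mural-like cells gave no value under the stricter cell filter or gate, and erythroid-like cells none from clusters. With 2 libraries a group, low genes limit what could be called.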
